A study of Rattus norvegicus with 24 samples.

Results

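The genes described here are the nuclear-encoded genes of oxidative phosphorylation, measured by bulk RNA sequencing in rat liver. They were taken by gene symbol alone, as the symbols beginning Ndufa, Ndufb, Ndufc, Ndufs, Ndufv, Uqcr, Cox4i, Cox5, Cox6, Cox7, Cox8 or Atp5, together with Sdha, Sdhb, Sdhc, Sdhd, Cyc1 and Cycs. Of 90 genes that matched, 7 assembly factor genes (Ndufaf) and 1 pseudogene were left out, which left 82 of the 15319 genes counted. They were 34 genes of complex I, 4 of complex II, 9 of complex III, 17 of complex IV (with Ndufa4 and Ndufa4l2 placed there), 17 of complex V and the gene of cytochrome c. No measured value entered this rule.

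The livers came from 24 adolescent Sprague-Dawley rats, an outbred laboratory stock, with 1 library per animal. The 4 groups of 6 were sham females, females exposed to PCB 52, sham males and males exposed to PCB 52, a polychlorinated biphenyl inhaled nose-only with filtered air that had passed over coated glass beads. Females entered exposure at an age of 42 days and males at 39 days, for 4 hours a day over 28 days. What the sham animals breathed is not given in the sources used here. Sham animals carried the numbers 1 to 12 and exposed animals 13 to 24, odd for males and even for females, and the labels do not say what the numbers order, so exposure and whatever goes with the numbers cannot be told apart. The counts of each sex came in a table of their own, so a difference between the sexes and a difference between the tables cannot be told apart. Nor can sex be told apart from age at the start, since all females entered at 42 days and all males at 39. All animals had arrived at an age of 28 days.

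Oxidative phosphorylation is the last stage of respiration in mitochondria. Complex I takes electrons from NADH and complex II takes them from succinate, and both pass them through coenzyme Q to complex III, which hands them by way of cytochrome c to complex IV and so to oxygen. Complexes I, III and IV pump protons as electrons pass, and complex V, the ATP synthase, lets the protons flow back to make ATP. Most of the subunits are coded in the nucleus and a smaller, catalytic set in mitochondrial DNA, and hepatocytes hold many mitochondria. No mitochondrially encoded gene was among the genes counted (0 found), so the description covers the nuclear part of each complex.

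Library totals ran from 6994832 to 9185511 counts, and the members took between 0.764% and 1.06% of them. Levels are given as CPM, counts per 1000000 library counts after scaling by TMM factors, which lay between 0.949 and 1.05. CPM is not corrected for transcript length, so levels are compared between animals, and values of different genes given side by side are not a comparison of their levels. The markers fitted the liver label, with 7 hepatocyte markers summing to between 141000 and 199000 CPM in each library. The 10 measured markers of striated muscle, another tissue rich in mitochondria, summed to at most 2.01 CPM, with Acta1 and Myh4 at 0 in all libraries. The libraries were also scored on an axis with no counterpart in the labels, the leading component of variation within groups over genes that are not members. The exposed animals 13 to 16 stood apart on this axis, with scores of 8.90, 10.7, 7.94 and 12.5, above the sham scores of −6.98 to 6.96, so results are given with and without these 4 libraries.

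Of the 82 members 77 passed the filter on low counts in each comparison, and 5 did not: Cox4i2, Cox6a2, Cox6b2, Cox8b and Ndufa4l2. These 5 are alternative isoforms or relatives of subunits that most tissues make in another form. Cox6a2 and Cox8b, the heart and muscle isoforms, had 12 and 5 counts over all 24 libraries. Cox6a1 and Cox8a, the widely made forms, had at least 6562 and 4705 counts in each group of 6. In both exposed groups Cox8b had 0 counts, which still allows a level of up to 0.061 CPM in females and 0.0633 CPM in males when 3 counts over the group are taken as the limit, for counting error only. Cox4i2, an isoform best known from lung, had 29 counts over all libraries and at most 4 in a library. Cox4i1, the main isoform, ran from 204 to 393 CPM. Cox6b2, the testis isoform, had 50 counts in all, and Ndufa4l2, a relative of Ndufa4 known to be induced by low oxygen, had 49. Of those 49, 23 fell in exposed males, 12 in sham males, 8 in sham females and 6 in exposed females. No library held more than 8 of them, too few to read a difference between groups. The 3 genes of the c subunit of the ATP synthase, which code for the same mature protein, were all well counted, with means ± SD in sham females and sham males of 114 ± 18.7 and 103 ± 23.3 CPM for Atp5mc1, 169 ± 24.3 and 163 ± 11.5 for Atp5mc2, and 171 ± 12.3 and 178 ± 14.6 for Atp5mc3. Cox7a1, Cox7b2 and Cox8c were looked for by symbol and were not found among the genes counted. For 45 of the 82 members the gene table names at least 1 pseudogene or like copy, among them Cycs with 10 and Atp5mc2 with 6, so reads of such members may be split between copies and their counts are uncertain.

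The promoters of the members held letters that the choice of members did not use. RefSeq gives a promoter window of 300 bases (250 before the start of the gene to 50 after it, build GRCr8) for 71 of the 82 members. The motif of NRF1, a transcription factor known for switching on respiratory chain genes, in its exact core form, stood on either strand in 13 of the 71 windows (18.3%), against 7.93% of the windows of all genes counted. AANATGGC, bound by YY1, stood in 26 windows (36.6%) against 8.38%, and CCGGAAGT, the letters of ETS factors such as GABPA, in 8 (11.3%) against 6.58%. TATAAA stood in 6 windows (8.45%) against 9.06%. These are matches of letters and not sites shown to be bound. The members' windows had a median GC content of 57% against 59.3% for all genes counted. Of the 26 matches to the YY1 letters 14 began after the start of the gene (53.8%, against 42.1% of the matches in all genes counted), where AANATGGC also holds the letters of a start codon. The 4 members with both the NRF1 motif and the YY1 letters are shown, since they come from 3 complexes and return in the comparisons, with those matches in capitals, 5′ to 3′ along the strand of the gene.
Atp5me (chr14:1464610-1464909, plus strand): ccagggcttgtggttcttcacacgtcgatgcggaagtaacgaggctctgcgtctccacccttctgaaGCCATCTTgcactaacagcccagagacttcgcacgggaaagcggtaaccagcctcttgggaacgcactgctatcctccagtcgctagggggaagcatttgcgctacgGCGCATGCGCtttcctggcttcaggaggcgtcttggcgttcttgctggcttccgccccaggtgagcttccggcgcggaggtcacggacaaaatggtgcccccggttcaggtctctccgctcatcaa
Sdha (chr1:30764303-30764602, plus strand): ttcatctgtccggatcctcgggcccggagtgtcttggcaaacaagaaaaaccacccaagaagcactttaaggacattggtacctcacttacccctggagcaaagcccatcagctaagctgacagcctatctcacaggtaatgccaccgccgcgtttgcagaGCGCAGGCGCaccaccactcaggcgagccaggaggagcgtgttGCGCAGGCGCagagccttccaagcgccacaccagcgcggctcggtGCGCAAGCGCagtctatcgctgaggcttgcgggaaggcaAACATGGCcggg
Uqcrc1 (chr8:118467973-118468272, plus strand): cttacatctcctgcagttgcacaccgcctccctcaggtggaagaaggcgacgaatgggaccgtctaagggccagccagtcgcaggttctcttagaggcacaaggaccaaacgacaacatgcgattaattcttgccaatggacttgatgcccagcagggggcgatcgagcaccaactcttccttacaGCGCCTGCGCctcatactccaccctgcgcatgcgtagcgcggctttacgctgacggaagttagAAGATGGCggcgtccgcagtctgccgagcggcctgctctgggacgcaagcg
Atp5po (chr11:44657434-44657733, minus strand): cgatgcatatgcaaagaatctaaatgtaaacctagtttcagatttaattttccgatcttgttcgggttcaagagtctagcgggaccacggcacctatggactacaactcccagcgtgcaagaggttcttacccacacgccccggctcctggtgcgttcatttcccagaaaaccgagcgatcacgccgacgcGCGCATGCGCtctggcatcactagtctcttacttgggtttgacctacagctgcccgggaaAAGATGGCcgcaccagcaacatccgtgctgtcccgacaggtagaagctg
The window of Sdha held the NRF1 motif 3 times, from base −89, base −46 and base −1 counted from the start of the gene, and the YY1 letters from base 39. In Uqcrc1 the YY1 letters lay across the start of the gene, in Atp5po they lay just after it, and in Atp5me they stood on the other strand from base −183.

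The members moved together from animal to animal within the groups. Over the 24 libraries, with each group centred on its own mean, the log2 levels of a pair of members had a median Pearson r of 0.411, and 2575 of the 2926 pairs lay above 0. The median was 0.418 between members of the same complex and 0.41 between members of different complexes. All these values share the same libraries and scaling factors and are descriptions. No pairwise r was computed for other genes, so whether members move together more closely than other genes was not tested. Closest to the mean of the other members were Atp5mc2 and Atp5mf of complex V (r of 0.941 and 0.901), Cox6a1 and Cox6b1 of complex IV (0.927 and 0.924), Ndufa1 and Ndufa6 of complex I (0.876 and 0.872), Uqcrc1 and Uqcr11 of complex III (0.828 and 0.798), and Sdha and Sdhd of complex II (0.627 and 0.596). Ndufs1, a large iron-sulfur subunit of complex I, ran the other way (r of −0.354), as did Uqcrc2, a core protein of complex III (−0.272), and Cycs (−0.178).

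**Figure D1:**
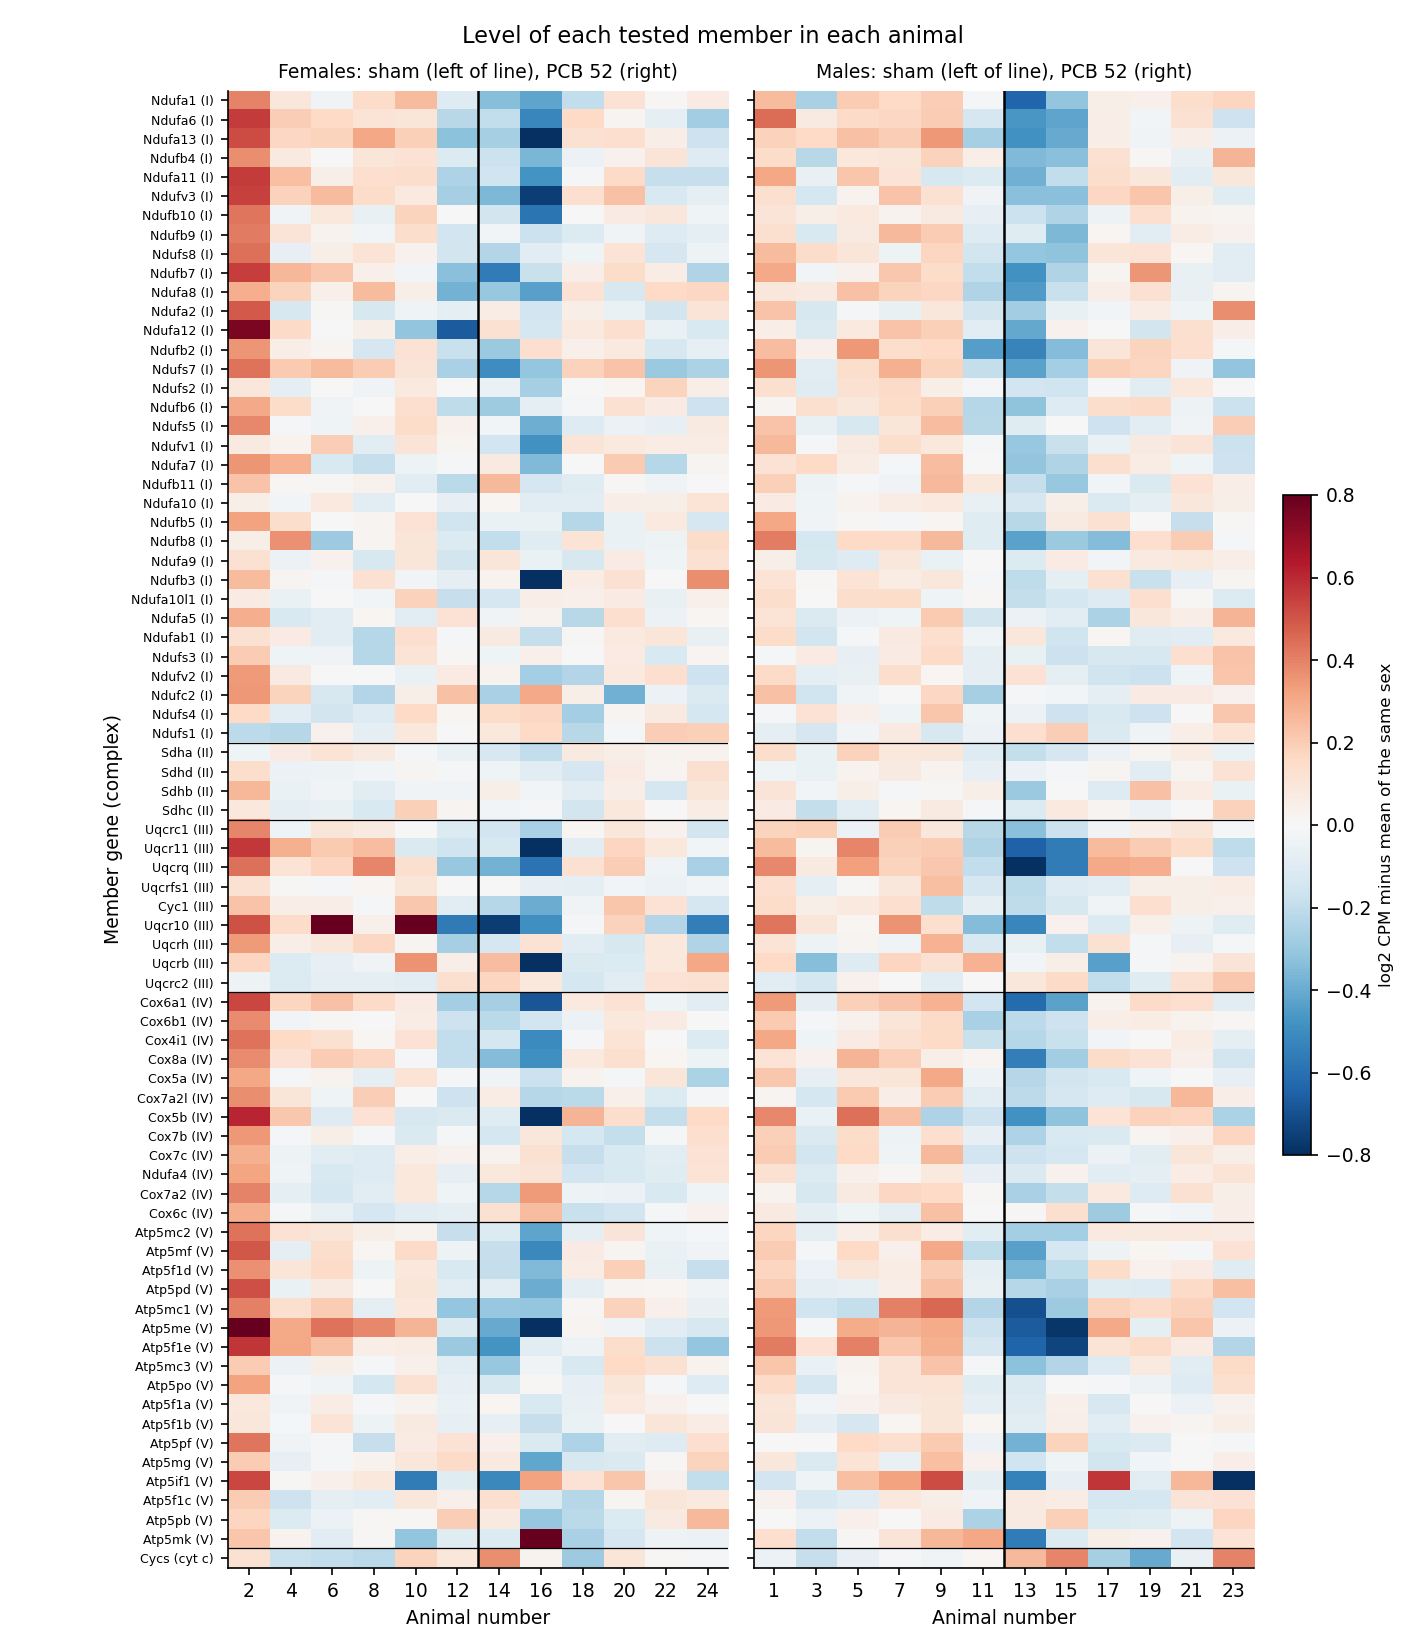
Heat map of the 77 tested members (rows, by complex and by likeness to the other members) in each animal (columns, by sex and group). Colour is log2 CPM minus the mean of the same sex, cut at 0.8 in either direction. Animal 2 lies above its sex's mean in 74 members, animals 13 to 16 lie below it in most rows, and Ndufs1, Uqcrc2 and Cycs differ from the rows around them.

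The map of members by animal shows columns rather than blocks of genes. Animal 2, a sham female, was highest, with 74 of 77 members above the mean of its sex and a median of 0.34 on the log2 scale. Animal 13 was lowest, with 8 of 77 members above the mean and a median of −0.23, and animals 14, 15 and 16 had medians of −0.11, −0.15 and −0.17. The exposed animals 17 to 24 lay between −0.040 and 0.065, and the sham animals other than animal 2 between −0.087 and 0.16. Consecutively numbered males and females, which belong to separate tables, were alike: after centring by group their medians had an r of 0.689 over 12 pairs, with the same sign in 10. Within groups the members had a median SD of 0.161 on the log2 scale (0.0675 for Atp5f1a to 0.413 for Atp5me), against 0.234 over all tested genes.

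**Figure D2:**
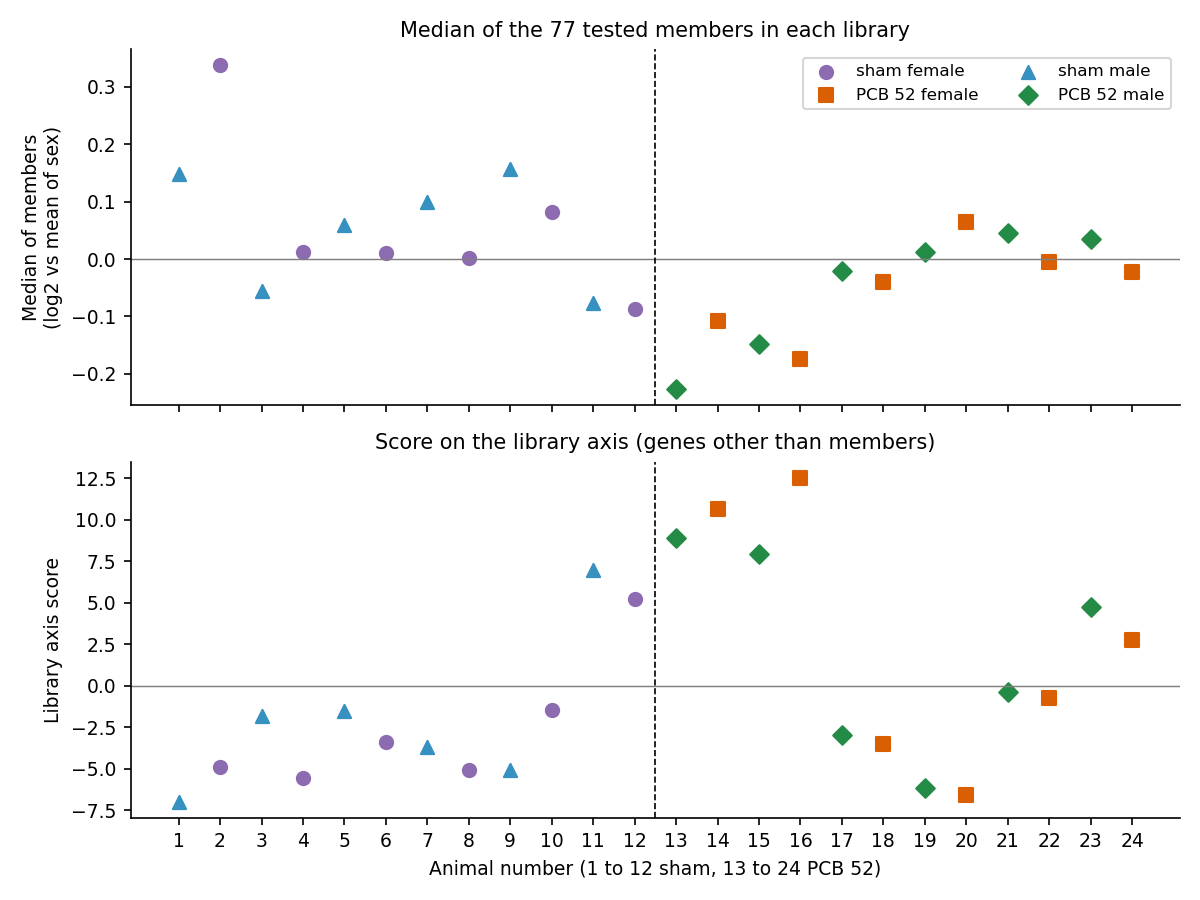
Median log2 level of the 77 tested members against the mean of the same sex (upper panel) and score on the library axis (lower panel, no unit) by animal number, with symbols for the 4 groups. Animals 13 to 16, with the 4 highest axis scores, have the 4 lowest medians, and animal 2 has the highest.

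This common movement went with the library axis. The sign of the axis is arbitrary and was set so that genes of the cytosolic ribosome weighed below 0 on average. Those genes had a median r of −0.423 with it, so the sign of the values below is not a result. The r of a member with the axis score had a median of −0.474, from −0.898 for Uqcrq, a small subunit of complex III, to 0.698 for Uqcrc2. It lay below 0 in 65 members, 84.4% of them, against 49.2% of all tested genes. Library medians of the members had an r of −0.692 with the axis over 24 libraries. With library medians of other lists r was 0.925 for the mitochondrial ribosome, 0.899 for the cytosolic ribosome and 0.264 for the citrate cycle, which feeds the respiratory chain. What the axis stands for was not tested, and in bulk tissue fewer cells of a type and less RNA per cell cannot be told apart.

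Exposure to PCB 52 was compared with sham in each sex. No member passed in either, at an adjusted p of 0.05 by edgeR's quasi-likelihood test with Benjamini-Hochberg adjustment over all genes tested, nor by DESeq2 or limma-voom. Among all genes the share called by edgeR was 0% in females (of 10251 tested) and 0% in males (of 10180), and by DESeq2 it was 0.446% and 0.00982% of the genes to which it gave an adjusted p (6276 and 10180). Most members lay a little below the sham level: 69 of 77 in females and 66 of 77 in males had a log2 fold below 0, against 49.3% and 49% of all genes. The median log2 fold was −0.11 in each sex, against 0.0032 and 0.0034 over all genes. At an unadjusted p under 0.05 there were 10 members in females, all lower (13%, against 9.96% of all genes in either direction and 5.32% lower), and 5 in males, all lower (6.49%, against 5.75% and 2.85% lower). Exposed and sham animals overlapped for every member in both sexes, while 0.234% of all genes in females and 0.108% in males lay lower without overlap.

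Averaged over the sexes in a fit of all 24 libraries, 71 of 77 members lay below 0 with a median log2 fold of −0.11, and again none passed in edgeR (0% of 10535 genes). DESeq2 called 2 members here, Atp5f1e and Atp5me, both lower (log2 folds of −0.36 and −0.49, adjusted p of 0.04999 and 0.04999), with 1.93% of the 5429 genes to which it gave an adjusted p. In edgeR 22 members were lower and 1 higher at an unadjusted p under 0.05, which is 29.9% of the members against 15.4% of all genes (7.38% lower and 8.04% higher). The members share libraries and move together, so these are not 77 independent observations. Consecutively numbered males and females were also alike and were fitted as independent, so these p-values may be too small. Without animals 13 to 16 the median was −0.079 in females, −0.052 in males and −0.057 on average, with 62, 62 and 70 of 77 members below 0 and 1, 0 and 4 at an unadjusted p under 0.05. Those counts are 1.3%, 0% and 5.19% of the members, below the 6.01%, 3.96% and 8.01% of all genes. These exposed animals had the 4 lowest medians of the members, so leaving them out brings the folds nearer 0 by itself. It also leaves fewer libraries to test, so the smaller folds and counts are not an independent check. With the axis score as a covariate the median log2 folds in females, in males and on average were −0.066, −0.047 and −0.051. That score was centred by sex and not by group, and it differed between sham and exposed animals. It can therefore take up part of an exposure difference, and these values are not a separate check.

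**Figure D3:**
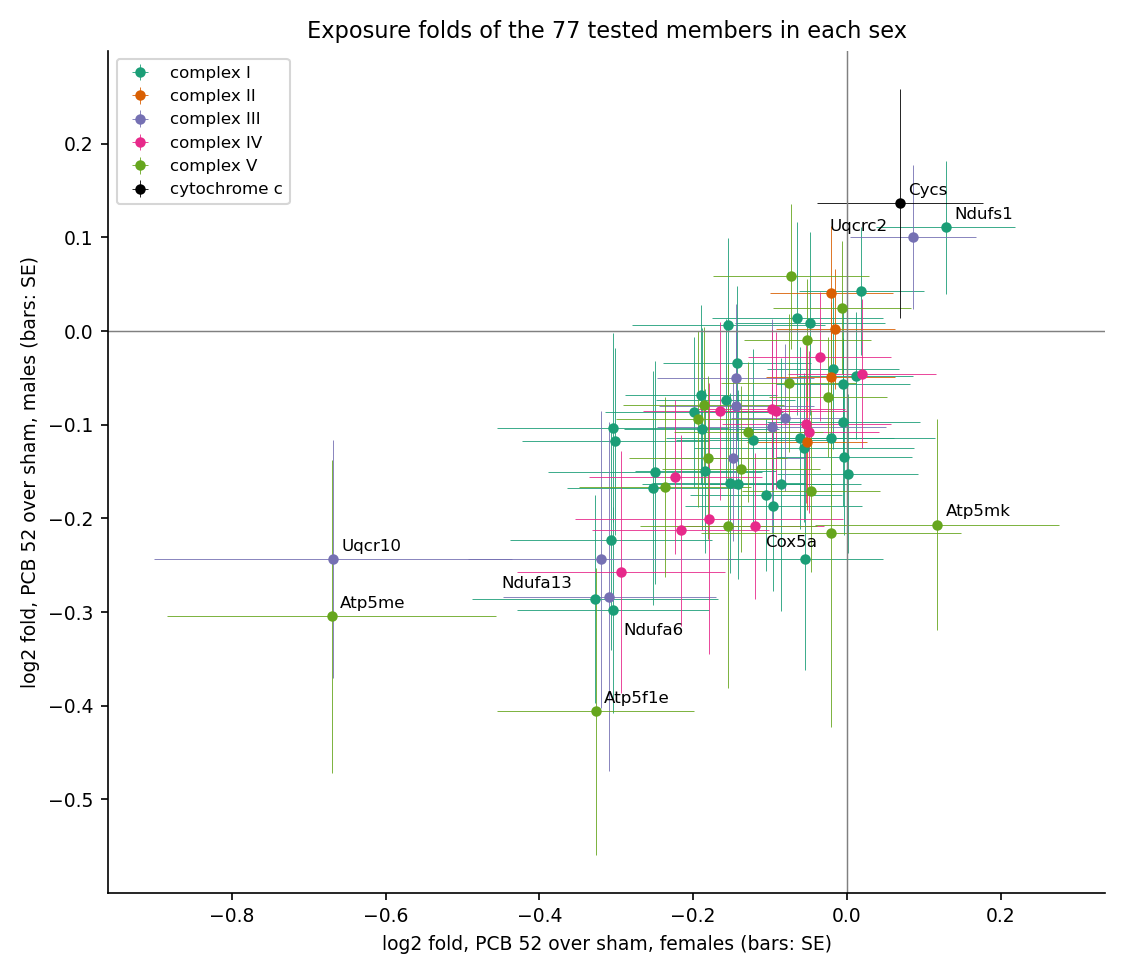
Log2 fold of each of the 77 tested members, PCB 52 over sham, in females and in males, coloured by complex, with standard errors as bars. Most points lie below 0 in both sexes, while Ndufs1, Uqcrc2 and Cycs lie above 0 in both.

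In complex V, 16 of 17 members in females and 15 of 17 in males lay below 0, with median log2 folds of −0.13 and −0.14. Atp5me, the e subunit, which helps join ATP synthases into dimers, had the lowest adjusted p of the members in females. It ran from 17.9 to 35.9 CPM in sham females (median 24.6) and from 6.66 to 19.6 in exposed females (median 17.9), and from 16.9 to 24.2 in sham males (median 23.1) and 11.1 to 23.5 in exposed males (median 18.2). The groups overlapped in both sexes, and the 4 lowest values of all belonged to animals 16, 15, 13 and 14. Its log2 fold was −0.67 ± 0.21 (SE) in females (adjusted p = 0.392), and in males it was −0.30 ± 0.17 (adjusted p = 0.829). Atp5f1e, the epsilon subunit of the catalytic head, ran from 57.9 to 106 CPM in sham females (median 78.8) and 50.9 to 78.3 in exposed females (median 65.2). In males it ran from 61.7 to 90.3 CPM (median 80.4) and 40.6 to 74.8 (median 64), so both pairs of groups overlapped. Its log2 folds were −0.33 ± 0.13 (adjusted p = 0.441) and −0.41 ± 0.15 (adjusted p = 0.829), and its average of −0.36 ± 0.10 shared the lowest adjusted p of the members, 0.146, with Ndufa6.

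The catalytic core of complex V lay near the sham level. Atp5f1b, the beta subunit that holds the catalytic site, was at 1515 ± 79.3 CPM (SD, n = 6) in sham females and 1465 ± 101 in exposed females, and at 1264 ± 81.1 and 1258 ± 57.9 in males. Atp5f1a, the alpha subunit, was at 743 ± 27.9 and 732 ± 36.3 CPM in females and at 782 ± 38.3 and 746 ± 36.4 in males. The 95% intervals of their average log2 folds ran from −0.12 to 0.071 and from −0.13 to 0.046. Both intervals also hold the median of all tested members, −0.11, and a difference of these subunits from the other members was not tested. Of the c subunit genes, Atp5mc1, Atp5mc2 and Atp5mc3 had average log2 folds of −0.18 ± 0.11, −0.13 ± 0.067 and −0.10 ± 0.061 (adjusted p of 0.427, 0.352 and 0.416). Atp5if1, the inhibitor that keeps the enzyme from running in reverse, was at 10 ± 2.43 and 9.9 ± 1.96 CPM in females and 11.2 ± 2.1 and 9.67 ± 3.51 in males, with an interval of the average from −0.40 to 0.17. Atp5mk, a small membrane subunit, was the only member of complex V above 0 in females (0.12 ± 0.16, adjusted p = 0.826). That direction rested on animal 16 at 59.3 CPM, without which the log2 fold was −0.084.

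In complex I, 30 of 34 members in females and 29 of 34 in males lay below 0, with median log2 folds of −0.11 and −0.12. Ndufa6, an accessory subunit, ran from 70.5 to 122 CPM in sham females (median 90.2) and 57.3 to 92 in exposed females (median 75). In males it ran from 68.6 to 103 CPM (median 84.3) and 54.7 to 82.1 (median 70.7). The groups overlapped, and the 3 lowest values were those of animals 13, 15 and 16, at 54.7, 56.4 and 57.3 CPM. Its log2 folds were −0.30 ± 0.12 in females and −0.30 ± 0.11 in males (adjusted p of 0.452 and 0.829), and −0.30 ± 0.087 on average (adjusted p = 0.146). Ndufa13, another accessory subunit, ran from 45 to 68.7 CPM in sham males (median 61.6) and 38.5 to 56.1 in exposed males (median 52.6), with overlap, a log2 fold of −0.29 ± 0.11 (adjusted p = 0.829). Among the subunits that carry electrons, Ndufv1, which binds NADH, was at 104 ± 6.79 and 97.1 ± 14 CPM in females and 116 ± 8.51 and 102 ± 11.3 in males, an average of −0.14 ± 0.063 (adjusted p = 0.301). Ndufs1 had the highest average of the members, 0.12 ± 0.055 (adjusted p = 0.288). It ran from 95.5 to 118 CPM in sham females (median 109) and 95.8 to 128 in exposed females (median 122), and from 110.4 to 127 in sham males (median 116) and 112 to 139 in exposed males (median 128), so its medians were higher in exposed animals and its groups overlapped.

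In complex III, 8 of 9 members lay below 0 in females and 8 of 9 in males, in each sex all but Uqcrc2. Uqcr10, one of the smallest subunits, ran from 13.4 to 38 CPM in sham females (median 25.2) and 11.8 to 22.6 in exposed females (median 15.6), a log2 fold of −0.67 ± 0.23 (adjusted p = 0.42). Its sham females were widely spread, with animals 6 and 10 at 35 and 38 CPM and animal 12 at 13.4. In males it ran from 13.5 to 23.1 CPM (median 18.6) and 12 to 17.7 (median 16.4), a log2 fold of −0.24 ± 0.13 (adjusted p = 0.829). Uqcrc2 was at 163 ± 10.2 and 173 ± 14.7 CPM in females and 161 ± 7.63 and 174 ± 18.6 in males, an average of 0.10 ± 0.053 (adjusted p = 0.381). Its partner core protein Uqcrc1 was at 166 ± 21 and 149.7 ± 13.9 CPM in females and 169.9 ± 19.1 and 155 ± 16.5 in males, an average of −0.14 ± 0.065 (adjusted p = 0.31). Of the electron carriers of the complex, Uqcrfs1, the Rieske iron-sulfur protein, was at 122 ± 4.97 and 116 ± 2.32 CPM in females and 134 ± 12.9 and 126 ± 9.59 in males. Cyc1, cytochrome c1, was at 123 ± 10.9 and 112 ± 17.3 CPM in females and 114 ± 10.4 and 109.9 ± 9.22 in males. Their average log2 folds were −0.083 ± 0.048 and −0.094 ± 0.065 (adjusted p of 0.412 and 0.498).

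Complex IV had 11 of 12 tested members below 0 in females, all but Cox6c, and 12 of 12 in males. Cox5a, a subunit on the matrix side, ran from 70.8 to 91.6 CPM in sham males (median 79.2) and 63.3 to 74 in exposed males (median 69.6), a log2 fold of −0.21 ± 0.078 (adjusted p = 0.829). In females it ran from 78.6 to 103 CPM (median 83.7) and 69.9 to 88.8 (median 81.8), a log2 fold of −0.12 ± 0.090, and the groups of both sexes overlapped. Cox4i1 was at 316 ± 45.5 and 271 ± 37.4 CPM in females and 278 ± 32.3 and 249.9 ± 18.6 in males, an average of −0.19 ± 0.071 (adjusted p = 0.227). The isoforms counted well in this liver had average log2 folds of −0.27 ± 0.10 for Cox6a1, −0.21 ± 0.080 for Cox8a, −0.086 ± 0.063 for Cox6b1, −0.072 ± 0.069 for Cox7a2, −0.12 ± 0.068 for Cox7a2l (a relative of Cox7a2 that helps join complexes III and IV) and −0.085 ± 0.061 for Cox7b. Their adjusted p ran from 0.214 for Cox6a1 to 0.646 for Cox7a2. Ndufa4, once counted with complex I, was at 156 ± 19 and 152 ± 13.1 CPM in females and 163 ± 9.93 and 160.5 ± 10.2 in males, an average of −0.028 ± 0.055.

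Complex II, which also serves the citrate cycle, had the median nearest 0 of the 5 complexes, at −0.021 in females and −0.023 in males. Sdha, the subunit that oxidises succinate, was at 260.3 ± 11.9 and 252 ± 18.7 CPM in females and 299 ± 22.8 and 276 ± 17.8 in males, an average of −0.082 with an interval from −0.18 to 0.018. Sdhb, its iron-sulfur partner, was at 114 ± 10.9 and 112 ± 6.92 CPM in females and 122 ± 4.1 and 118 ± 14.3 in males, an average of −0.031 with an interval from −0.14 to 0.081. A difference of complex II from the other complexes was not tested. Cycs, the mobile carrier between complexes III and IV, ran from 76.1 to 99.8 CPM in sham females (median 86.1) and 72.3 to 114 in exposed females (median 89.5). In males it ran from 89.3 to 102 CPM (median 98.7) and 76.7 to 134 (median 109), so exposed males lay both above and below the whole range of the sham males. Its log2 fold was 0.14 ± 0.12 in males (adjusted p = 0.871) and turned to −0.00066 without animals 13 to 16, of which animals 13 and 15 stood at 121 and 133 CPM. The highest exposed male was animal 23, at 133.5 CPM, which stays in that fit.

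**Figure D4:**
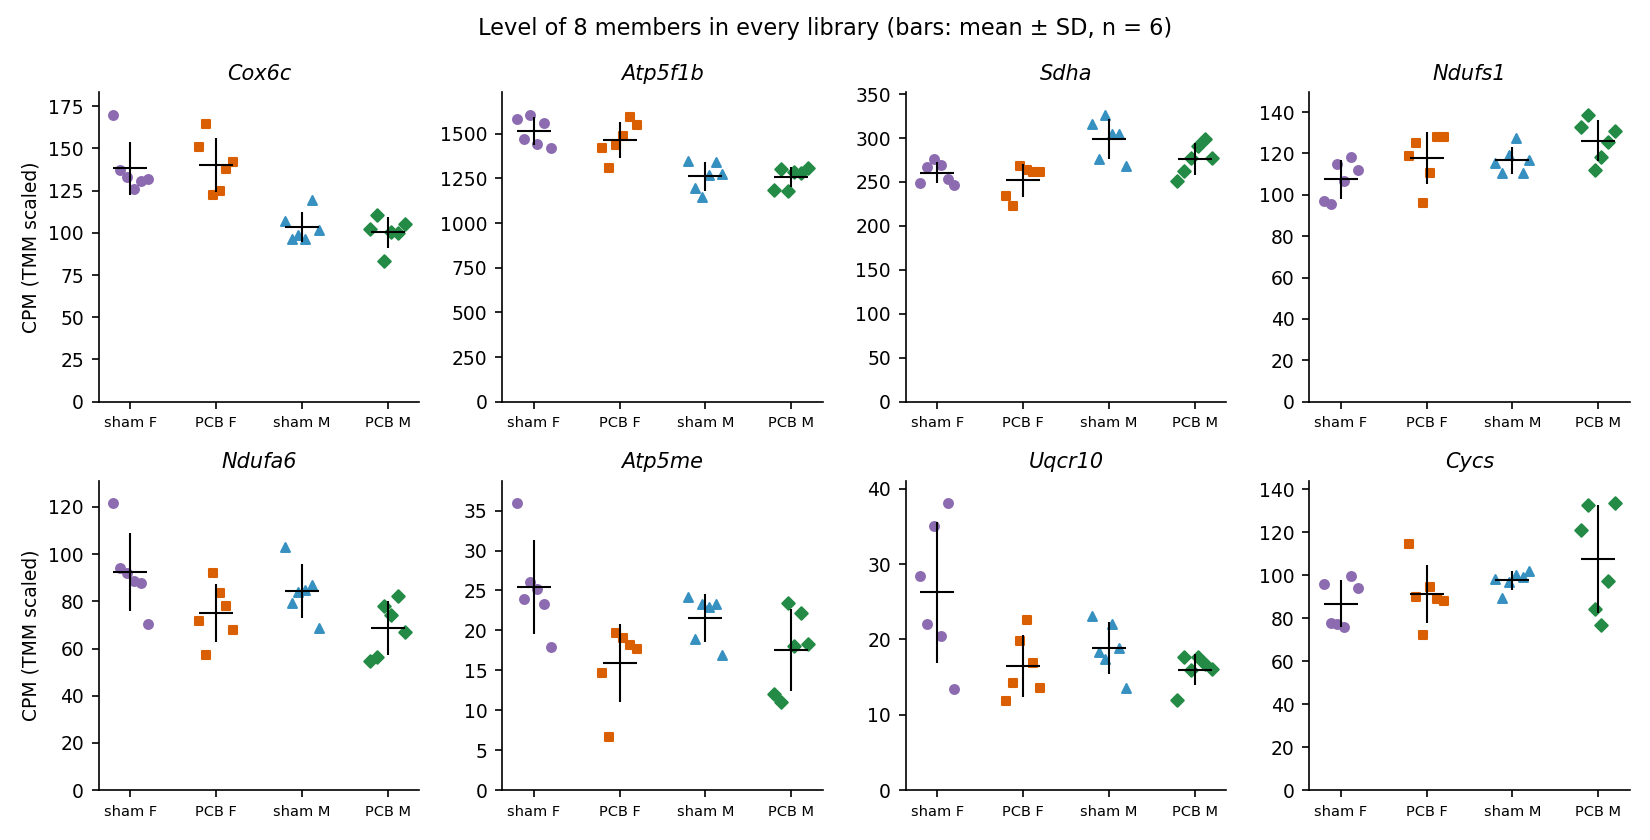
Level in CPM (vertical, from 0) of 8 members in every library of the 4 groups (points), with mean and SD of 6 libraries as bars. Cox6c does not overlap between females and males in either treatment, while sham and exposed animals of the same sex overlap in all 8 panels.

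Whether the sexes responded differently was tested by the difference of their exposure folds. No member passed (0% of 10535 genes in edgeR, and 0 members in DESeq2 and limma-voom), and 0 members had an unadjusted p under 0.05 in edgeR, against 2.27% of all genes. The median difference, female minus male, was −0.014, and every member had an adjusted p of 1. The members with the lowest p on the higher side were Atp5mk (0.32, interval −0.10 to 0.74, and 0.12 without animal 16), Ndufb11 (0.15, interval −0.10 to 0.40) and Ndufa10l1 (0.13, interval −0.093 to 0.35). On the lower side they were Uqcr10 (−0.42, interval −0.997 to 0.15), Atp5me (−0.36, interval −0.97 to 0.24) and Ndufa11 (−0.18, interval −0.52 to 0.15). The 4 measured erythroid markers, none of them at 0 in all libraries, summed to 41.2 to 157 CPM in sham females (median 90.4) and 16.9 to 140 in exposed females (median 29.6), and to 70.9 to 157 (median 82.6) and 20.1 to 137 (median 79.8) in males. Their part in the exposure folds was not tested.

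More members differed between the sexes than with exposure, though a smaller share than of all genes. Between sham females and sham males 4 members were higher and 3 lower, together 9.09% of 77, against 20.3% of all 10535 genes (10.7% higher and 9.62% lower). Those higher in females were Cox6c, Atp5f1b, Atp5po and Atp5f1c, and those lower were Ndufa10l1, Sdha and Ndufa10. Between exposed females and exposed males 3 were higher, Cox6c, Atp5f1b and Atp5mk, and 1 was lower, Sdhc, together 5.19% against 19.9% of all genes (10.1% higher and 9.73% lower).

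Cox6c, a small subunit of complex IV outside its catalytic core, had the lowest adjusted p in both. It ran from 126 to 169.8 CPM in sham females (median 133) and from 96.4 to 119 in sham males (median 100.2), and the groups did not overlap, as was the case upward for 6.1% of all genes. Its log2 fold was 0.42 ± 0.087 (adjusted p = 0.00053). In exposed animals it ran from 122 to 165 CPM in females (median 139.9) and 83.4 to 111 in males (median 101), again without overlap (5.14% of genes), with a log2 fold of 0.49 ± 0.087 (adjusted p = 9.14e-05). The gene table names 3 copies of Cox6c, so its count is uncertain. The same holds for other members past the threshold between the sexes. The gene table names 4 copies of Atp5f1c, 3 of Atp5mk, 2 of Atp5f1b, and 1 each of Atp5po, Ndufa10 and Sdhc. Atp5f1b ran from 1420 to 1606 CPM in sham females (median 1516) and 1145 to 1350 in sham males (median 1273), without overlap, a log2 fold of 0.26 ± 0.068 (adjusted p = 0.00492). In exposed animals it ran from 1308 to 1592 CPM in females (median 1461) and 1181 to 1309 in males (median 1284), so the groups just met, and its log2 fold was 0.22 ± 0.068 (adjusted p = 0.0186).

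The other members of complex V higher in sham females were Atp5po, the stalk subunit that ties the catalytic head to the membrane part, and Atp5f1c, the gamma subunit that turns inside the head. Atp5po ran from 103 to 142 CPM in sham females (median 112) and 89.2 to 108 in sham males (median 102), a log2 fold of 0.23 ± 0.077 (adjusted p = 0.0314). Atp5f1c ran from 170.3 to 219.8 CPM (median 189) and 153 to 177 (median 167), a log2 fold of 0.22 ± 0.077 (adjusted p = 0.0436). Females and males overlapped for both genes. In exposed animals their log2 folds were 0.21 ± 0.077 (adjusted p = 0.0529) and 0.19 ± 0.077 (adjusted p = 0.0919).

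Lower in sham females were Ndufa10, an accessory subunit of complex I, its relative Ndufa10l1, and Sdha of complex II. Ndufa10 ran from 78 to 87.3 CPM in sham females (median 82.3) and 88 to 96.9 in sham males (median 94.7), without overlap (5.35% of genes downward), a log2 fold of −0.18 ± 0.063 (adjusted p = 0.041). Ndufa10l1 ran from 23.1 to 29.8 CPM (median 26) and 29.2 to 33.1 (median 31.5), with overlap, a log2 fold of −0.26 ± 0.077 (adjusted p = 0.0162). The 2 genes are near relatives, and reads may be split between them. Sdha ran from 247 to 276 CPM (median 260.5) and 268 to 326 (median 305), with overlap, a log2 fold of −0.20 ± 0.069 (adjusted p = 0.0369). In exposed animals the log2 folds of these 3 were −0.12 ± 0.063, −0.12 ± 0.078 and −0.13 ± 0.069 (adjusted p of 0.196, 0.293 and 0.191). Sdhc, a membrane anchor of complex II, ran from 96 to 113 CPM in exposed females (median 106) and 112 to 137 in exposed males (median 121), with overlap, a log2 fold of −0.21 ± 0.071 (adjusted p = 0.0343). Its log2 fold in sham animals was −0.15 ± 0.071 (adjusted p = 0.153). A call in sham animals and not in exposed animals, or the reverse, does not show that the sex difference differed, and the test of that difference gave an adjusted p of 1 for each of these members.

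**Figure D5:**
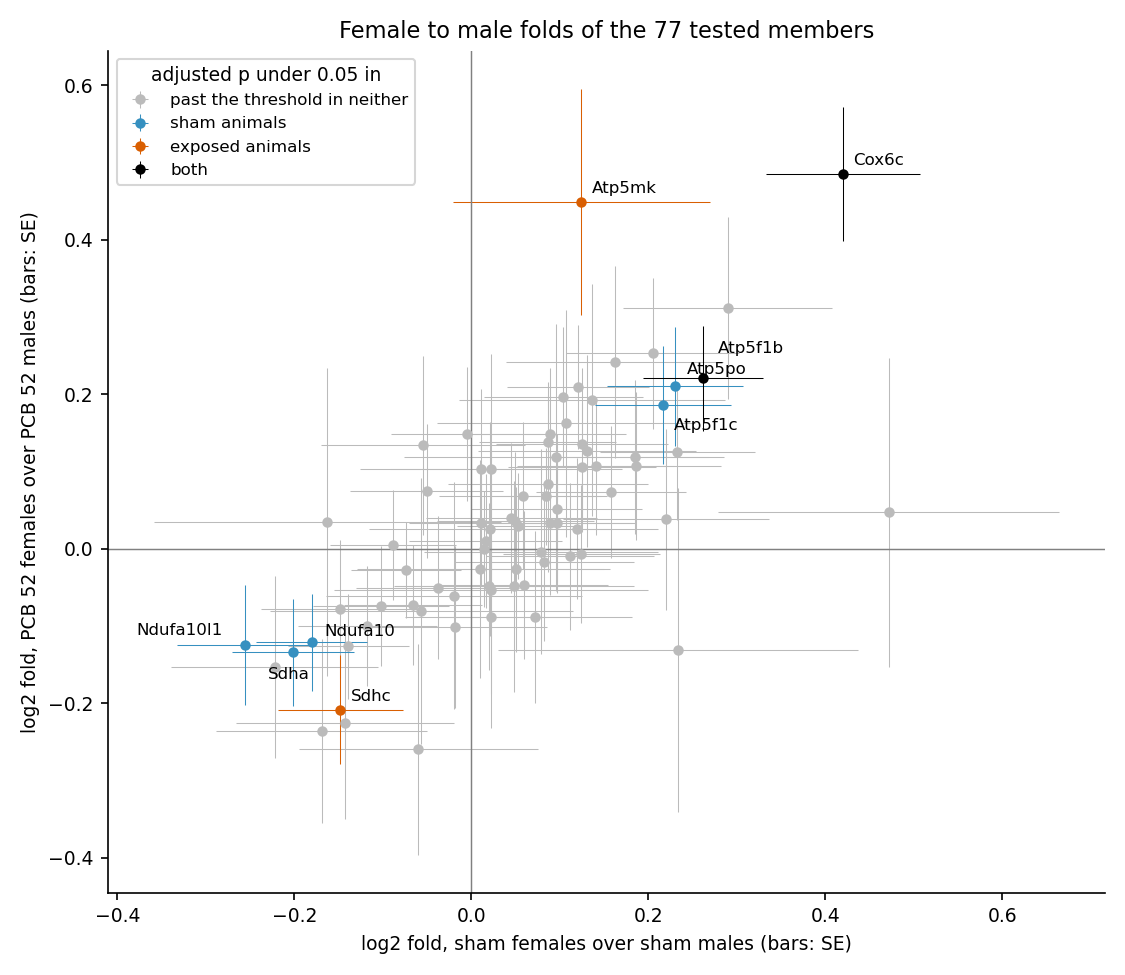
Log2 fold of each of the 77 tested members, females over males, in sham animals and in exposed animals, with standard errors as bars and colours for the members with an adjusted p under 0.05 in sham animals, in exposed animals or in both. Cox6c and Atp5f1b passed in both.

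By complex, females lay above males in 11 of 12 tested members of complex IV and 14 of 17 of complex V in sham animals, with median log2 folds of 0.092 and 0.10, and below them in 3 of 4 members of complex II (median −0.12). In exposed animals the counts were 10 of 12, 11 of 17 and 3 of 4. Over all members the median was 0.058 in sham and 0.033 in exposed animals, against −0.0033 and −0.0044 over all genes. Both medians turned when a single library was left out, to −0.016 without animal 2 in sham animals and to −5.4e-05 without animal 13 in exposed animals. Atp5mk passed in exposed animals (0.45 ± 0.15, adjusted p = 0.0271), but its value rested on animal 16 at 59.3 CPM, while the other exposed females lay between 27.9 and 32.5 and the exposed males between 18.8 and 29.8. Without animal 16 its log2 fold was 0.25 (adjusted p = 0.126).

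With each library left out in turn, the log2 fold of each of these members kept its direction, while several calls lay near the threshold and were lost. Between sham animals Cox6c, Atp5f1b and Ndufa10l1 passed in all 12 fits, with adjusted p of at most 0.00219, 0.0217 and 0.0489. The call of Atp5po was lost without animal 2, 3, 5, 10 or 11 (log2 fold 0.17 to 0.26 over the 12 fits, adjusted p of at most 0.104), and that of Sdha without animal 1, 2, 5, 7, 9, 10 or 12 (−0.23 to −0.18, at most 0.0901). The call of Ndufa10 was lost without animal 1, 4, 5, 7, 8, 9, 10 or 12 (log2 fold −0.20 to −0.16, adjusted p of at most 0.0935), and that of Atp5f1c without animal 1, 2, 3, 5, 6, 9, 10, 11 or 12 (0.17 to 0.25, at most 0.114). Between exposed animals Cox6c passed in all 12 fits. The call of Atp5f1b was lost without animal 22 (log2 fold 0.20 to 0.25 over the 12 fits, adjusted p of at most 0.0529) and that of Sdhc without animal 14, 15, 16, 17, 18, 22 or 23 (−0.23 to −0.17, at most 0.105). The call of Atp5mk was lost without animal 13, 16 or 21, and its log2 fold ran from 0.25 to 0.51, lowest without animal 16 (adjusted p of at most 0.126). The 10 Kupffer cell and macrophage markers, all with a mean above 1 CPM, also summed to more in females, at 727 to 896 CPM against 585 to 670 in sham animals and 646 to 825 against 563 to 680 in exposed animals, and their part in these folds was not tested.

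By animal number, a slope fitted within the 4 groups passed for 0 of 77 members (0% of 10535 genes in edgeR, and 0 members in DESeq2 and limma-voom). In edgeR 0 members had an unadjusted p under 0.05, where 5.59% of genes did, and the median slope was 0.0015 on the log2 scale per animal number. The members with the lowest p were Ndufa1, Atp5mg and Uqcrb with slopes above 0 (0.023, 0.014 and 0.022) and Ndufb5, Ndufa12 and Uqcrh with slopes below 0 (−0.015, −0.025 and −0.012). Without animals 13 to 16, 8 members passed, all falling with animal number (10.4%, against 2.37% of 10618 genes), and the median slope was −0.011. They were Atp5f1e (−0.056 ± 0.011 per animal number, adjusted p = 0.0108), Ndufa6 (−0.050 ± 0.0096, adjusted p = 0.0121), Uqcrq, Ndufa11, Ndufb7, Ndufs7, Cox5b and Uqcr11 (adjusted p of 0.0214 to 0.0348). In the same fit 11 of 79 tested genes of the cytosolic ribosome (13.9%) and 5 of 70 of the mitochondrial ribosome (7.14%) passed, all falling. The fall was thus not particular to the members. Animals 13 to 16 were low and come first in number among the exposed, so leaving them out lowers the slope by itself. These fits also took consecutively numbered animals as independent, so their p-values may be too small. Uqcrq stood at 199 and 199 CPM in animals 1 and 2 and at 133 and 119 in animals 11 and 12. It stood at 84.2, 112, 103 and 97.4 CPM in animals 13 to 16, at 188 and 159.5 in animals 17 and 18 and at 136 and 122 in animals 23 and 24.

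Separate slopes for the treatments, fitted after seeing these values, differed in sign. Among sham animals 69 of 77 members sloped down (median −0.018) and among exposed animals 71 of 77 sloped up (median 0.020), and the difference lay above 0 in 74 of 77. With all 24 libraries no member passed in any of these, where 0% of genes passed in each treatment and 0.0759% for the difference. At an unadjusted p under 0.05 there were 19 members among sham animals, 26 among exposed animals and 37 for the difference, which is 24.7%, 33.8% and 48.1% of the members, against 11.1%, 10.7% and 16.1% of all genes. Shares in the cytosolic ribosome were 50.6%, 30.4% and 64.6%, and in the mitochondrial ribosome 17.1%, 14.3% and 28.6%. Of 79 cytosolic ribosomal genes 77 sloped down among sham animals and 71 up among exposed animals, and 2 passed for the difference. Of 70 mitochondrial ribosomal genes 60 sloped down and 41 up. Without animals 1 and 2, 42 of 77 members sloped down among sham animals (median −0.0022), and without animals 11 and 12, 66 did (median −0.011). Without animals 13 to 16, 42 of 77 sloped up among exposed animals (median 0.0041) and 69 sloped down among sham animals (median −0.019). In that fit 2 members passed among sham animals, Atp5f1e and Ndufa6 (adjusted p of 0.0445 and 0.0459), which is 2.6% against 0.414% of all genes. The cytosolic ribosome had 8 genes past the threshold there (10.1%), and the mitochondrial ribosome had 2 (2.86%). The difference of the slopes lay above 0 in 64 of 77 members (median 0.022), and 0 members passed among exposed animals or for the difference.

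Genes that serve the complexes without being part of them gave the setting of these values, from lists chosen with earlier results of these data known. In the exposure comparisons and their average 0 genes of these lists passed in edgeR. In females 28 of 48 assembly factor genes lay below 0 (median log2 fold −0.055), as did 54 of 70 genes of the mitochondrial ribosome (−0.11) and 76 of 79 tested genes of the cytosolic ribosome (−0.15). In males the counts were 28, 48 and 60 (−0.030, −0.031 and −0.071). Of 21 regulators of mitochondrial genes 17 lay below 0 in females and 9 in males, of 14 citrate cycle genes 8 and 8, of 17 genes of electron entry and coenzyme Q 9 and 11, and of 7 tested carriers and uncoupling proteins 4 and 3.

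Between sham females and sham males the cytosolic ribosome had 18 of 79 genes higher and 0 lower, together 22.8%. Of all genes 20.3% passed, 10.7% higher and 9.62% lower. Of the 79 genes 75 lay above 0, with a median log2 fold of 0.17, and Rpl10 was among those past the threshold (0.31 ± 0.070, adjusted p = 0.00167). Between exposed females and exposed males the cytosolic ribosome had 6 higher and 1 lower (8.86%, against 19.9%), with 71 above 0 and a median of 0.10. Rpl10 was at 0.20 ± 0.070 there, adjusted p = 0.0432. In sham animals the mitochondrial ribosome had 3 of 70 higher and 3 lower, with Mrps28 at 0.40 ± 0.098, adjusted p = 0.00279, and in exposed animals 2 higher and 3 lower, with Mrps28 at 0.35 ± 0.099, adjusted p = 0.00916. Mrpl16 was among the lower genes in both, at −0.29 ± 0.088 in sham animals (adjusted p = 0.0161) and −0.35 ± 0.089 in exposed animals (adjusted p = 0.0045). Of the assembly factors 4 of 48 passed, all lower in females: Acad9, Lrpprc, Tmem70 and Sco1, and in exposed animals 3 were lower and 0 higher. The citrate cycle had 3 of 14 genes higher, Dlst, Suclg1 and Sucla2, and 1 lower, Idh2, mitochondrial isocitrate dehydrogenase. Idh2 averaged 41.3 CPM in sham females and 94.9 in sham males, a log2 fold of −1.20 ± 0.10 (adjusted p = 1.67e-10), and had −1.01 ± 0.10 in exposed animals (adjusted p = 5.48e-09). Coq10a, which binds coenzyme Q, was higher in females, at 43.6 against 19.8 CPM (1.14 ± 0.11, adjusted p = 1.53e-09), and had 0.81 ± 0.11 in exposed animals (adjusted p = 7.72e-07). Dhodh, also on the list of electron entry and coenzyme Q, was lower in females (−0.38 ± 0.13, adjusted p = 0.032, and −0.44 ± 0.13 in exposed animals, adjusted p = 0.0115). Among regulators, Polg2, a subunit of the mitochondrial DNA polymerase, was higher in sham females (0.70 ± 0.17, adjusted p = 0.0029) and did not pass in exposed animals (0.40 ± 0.17, adjusted p = 0.113), and Twnk, its helicase, was lower (−0.38 ± 0.12, adjusted p = 0.0225, and −0.75 ± 0.12 in exposed animals, adjusted p = 2.79e-05). No carrier or uncoupling gene passed in either treatment in edgeR, against the 20.3% and 19.9% of all genes given above.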

How the data were processed

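Bulk RNA was sequenced from the liver of 24 rats, with 1 library per animal. The deposited values were gene counts, not normalized, in a table for each sex. The submitters' processing notes name FastQC for read quality, HISAT2 as aligner and rn6 as build, per the labels. For the counter, its strand setting and its gene models, nothing is given in the sources used here. The labels' protocols name poly(A) capture or rRNA removal without saying which, and without strand, reads of overlapping genes cannot be told apart.

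Of the 15319 IDs 15230 matched a symbol in a RefSeq table of GRCr8. Library totals ran from 6994832 to 9185511, and intervals cover counting error and the spread between animals of a group, which the labels treat as separate animals. Groups came from the labels, and animal numbers from the titles. Counts were scaled by TMM factors and filtered by edgeR 4.0.16 (filterByExpr, minimum count 10 and total 15), and tested by its quasi-likelihood test with Benjamini-Hochberg adjustment over all genes passing the filter. Exposure was fitted within each sex, and the average, the difference of the sexes, the sex comparisons and the slope in joint fits of 24 libraries. DESeq2 1.42.0 and limma 3.58.1 were alternatives, with other scalings, filters, libraries, a threshold of 0.1 and the axis score as a covariate. The scripts were tested on simulated data. CPM levels used TMM factors over 24 libraries. Overlap of groups was read on the CPM levels.

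The members and lists were chosen with earlier results of these data known, though the rule for the members uses symbols and no measured value. Named were fixed anchors and isoforms, every member past the threshold or, with none, the 3 higher and 3 lower members with the smallest p, and the 2 members of each complex most like the mean of the others. From several lists at most 4 of the genes past the threshold were named, and others past it were left unnamed. Uqcrq and the members least like the others were singled out after their values were seen. The library axis was the leading component within groups over non-members, scored in each sex with the weights of the other, and took 16.6% of that variance in females and 19.8% in males. Its sign was set so that the weights of cytosolic ribosomal genes lay below 0 on average over the sexes. The r values with the axis used scores centred by group. The scores given by animal and the covariate were centred by sex only, so they also hold differences between sham and exposed animals.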

Additional observations from a re-analysis of the deposited data

Results flagged for a closer look

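Dixon's test was run on 136 sets of 6 values, each from 1 group. The sets held fixed anchors, members past the threshold or with the smallest p, and the library medians of all tested members. In 10 sets a library's gap to the nearest of the others passed the 95% critical value, which chance reaches in about 1 set of 20. Of these, 3 were animal 2 among the sham females. There Cox6c was at 169.8 CPM against 126 to 137 in the other animals, Sdhb at 136 against 106 to 110.3, and Uqcrc1 at 205 against 145 to 168. Animal 12, also a sham female, stood high in Uqcrc2, at 183 CPM against 155 to 163. Among the sham males, Ndufb5 was at 69.4 CPM in animal 1, and at 52.6 to 56.8 CPM in the other animals, while Ndufa13 was at 45 CPM in animal 11, and at 60.2 to 68.7 CPM in the other animals.

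Among the exposed females, Atp5mk was at 59.3 CPM in animal 16, and at 27.9 to 32.5 CPM in the other animals, the value on which its direction and its call rested. In the same group Ndufb11 was at 92.5 CPM in animal 14, and at 70.3 to 77.9 CPM in the other animals. Among the exposed males, Uqcr10 was at 12 CPM in animal 13, and at 15.9 to 17.7 CPM in the other animals, and Uqcrb was at 14.5 CPM in animal 17, and at 19.3 to 21.1 CPM in the other animals. Of the 10 values, 7 lay above and 3 below the rest of their group, and the cause of each was not tested.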

How the results depend on the processing

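Members called stayed at 0 in the exposure comparisons of each sex and in their difference under every alternative run. On the average of the sexes DESeq2 called 2 members where edgeR called 0, and the median log2 fold of the members ran from −0.12 to −0.051 over the alternatives that left out no single library. Between sham females and sham males 7 members were called, and 3 without a filter on low counts (14.8% of all genes), which raises the number of genes tested. Between exposed females and exposed males 4 were called, 8 with the axis score as a covariate (22.9% of all genes), 2 without animals 13 to 16 (15.6%) and 9 at an adjusted p threshold of 0.1 (24.8%). The slope on animal number called 0 members and 8 without animals 13 to 16, where the median slope moved to −0.011 and that of Ndufa1 turned to −0.0059. With the axis covariate and without animals 13 to 16, Atp5mk in females turned to −0.046 and −0.087, Cycs in males to −0.032 and −0.00066, and Cycs on average to −0.011 and −0.0091. With 1 library left out at a time, members called ran from 3 to 6 between sham animals and from 2 to 6 between exposed animals, and stayed at 0 elsewhere. The share of all genes called in those fits is not given here, so whether these changes are particular to the members cannot be told. In those fits the median log2 fold of the members ran from −0.13 to −0.060 in females, −0.14 to −0.080 in males, −0.14 to −0.086 on average, −0.016 to 0.087 between sham animals and −5.4e-05 to 0.061 between exposed animals. The difference of the exposure folds ran from −0.046 to 0.040, the median slope from −0.0035 to 0.0062, and Atp5mk in females from −0.084 to 0.18. The cause of these changes was not tested, beyond the number of genes or libraries that an alternative takes away.

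The labels give no pairing, and the replicate block took consecutive animal numbers as pairs of 1 male and 1 female. With the block 10 members were called between sham animals (23.4% of all genes) and 9 between exposed animals (22.8%), and 0 for the difference of the exposure folds. The exposure comparisons themselves could not be fitted with the block, since both animals of a pair had the same treatment. Of the other values of named members, 1087 kept their direction and side of the threshold under these alternatives, 50 kept their direction and were no longer past it, and 2 were newly past it. Depth limits the 5 members under the count filter, and 6 animals a group limit folds of the size seen here.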
